A study of Mus musculus with 8 samples.

Results

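Macrophages are recognised in RNA by a set of genes for complement, phagocytosis, lysosomal digestion and immune signalling, and 37 such genes were followed here among the 23432 gene symbols counted in mouse skin epithelium. They were taken by symbol from a list of macrophage and myeloid genes and divided into 24 macrophage genes, 8 genes linked to tissue-resident macrophages (Mrc1, Ms4a7, Cx3cr1, Fcrls, Pf4, F13a1, Cd163 and Folr2) and 5 pan-leukocyte genes carried by most white blood cells (Laptm5, Cd53, Cd52, Ptprc and Itgb2). The study asked how skin epithelium depends on MOF, the enzyme that acetylates lysine 16 of histone H4, and on KANSL1, a subunit of one of its complexes. Polyadenylated RNA was sequenced from 4 groups of 2 libraries each, 8 libraries in all. The first 2 groups were epithelial cells sorted by FACS from E16.5 back skin as Krt14-H2BGFP+ cells, from control embryos and from MOF fl/fl embryos carrying Krt14-Cre (MOF cKO). The other 2 groups were whole epidermis of P0.5 pups, freed from the dermis with Dispase and lysed by floating on TRIzol, from control pups and from Kansl1 fl/fl pups carrying Krt14-Cre (Kansl1 cKO). Both deletions are driven by the keratin 14 promoter and are therefore aimed at epithelial cells, not at macrophages, and the Kansl1 allele loses exon 3. All mice had a mixed C57Bl/6J and CD-1 background, and animals of both sexes were used. The controls are labelled only as control. The article calls those of MOF cKO wildtype or heterozygous littermates, and those of Kansl1 cKO only control littermates.

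Macrophages enter the embryonic skin early and persist there as resident cells that clear dying cells and debris, while others arise from blood monocytes. They depend on the receptor CSF1R, sense their surroundings through Fc receptors, lectins and receptors that signal through the adaptors TYROBP and FCER1G, and secrete C1q, the recognition part of the classical complement pathway. Epithelial cells do not usually make most of these transcripts, so they serve as markers of leukocytes in an epithelial sample. In bulk RNA, fewer cells of a type and less RNA per cell cannot be told apart.

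The epithelial identity of the libraries was clear in their keratins: Krt14 lay between 4663 and 11543 CPM (counts scaled to the library's size, with TMM factors over all 8 libraries), Krt5 between 9236 and 20337 CPM, and Trp63, their transcription factor, between 343 and 631 CPM. Counts on genes totalled 9108709 to 27561688 per library, and 1 count was worth 0.0291 to 0.127 CPM. Kat8, which encodes MOF, had 443 and 408 counts in E16.5 control and 248 and 329 in MOF cKO (log2 fold change -0.14), and Kansl1 had 355 and 745 counts in P0.5 control and 649 and 387 in Kansl1 cKO (log2 fold change -0.52). These counts are summed over whole genes and do not separate the deleted exons, so they do not check the deletions. The sexes were not balanced among groups: Xist stood at 1353 and 9.04 CPM in E16.5 control, 11.1 and 9.40 in MOF cKO, 471 and 1.36 in P0.5 control and 413 and 450.1 in Kansl1 cKO. Within each control group, 1 library was high and the other low, so these libraries held RNA of different animals. The study describes each comparison as 2 pairs of samples with littermate controls. For MOF cKO and Kansl1 cKO these values do not separate the animals, and whether animals were pooled is not given in the sources used here.

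The genes were scarce in sorted E16.5 control epithelium, higher in MOF cKO, and higher still in P0.5 epidermis. Their summed level was 23.5 and 47.7 CPM in the E16.5 control libraries, 166.7 and 198.6 CPM in MOF cKO, 457.4 and 494.6 CPM in P0.5 control and 656.5 and 674.8 CPM in Kansl1 cKO. No library overlapped with a library of another group in this order. The 24 macrophage genes summed to 22.2 and 44.9 CPM in E16.5 control and 127.9 and 173.5 CPM in MOF cKO, the 8 resident genes to 0.785 and 1.63 against 23.8 and 9.36 CPM, and the 5 pan-leukocyte genes to 0.523 and 1.18 against 15.0 and 15.7 CPM. Between E16.5 control and MOF cKO the mean sum was therefore 4.49-fold, 13.7-fold and 18.0-fold higher in the 3 groups.

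**Figure D1:**
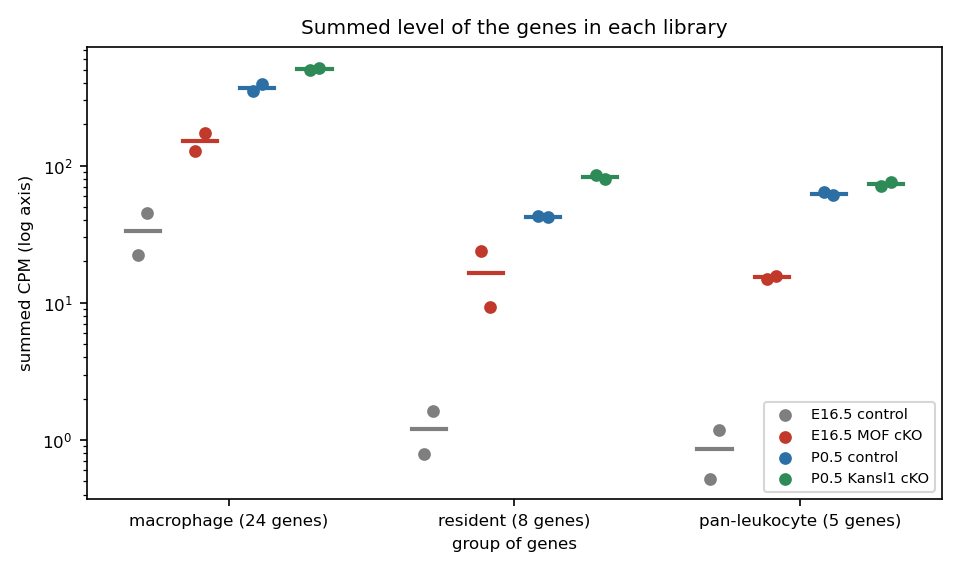
Summed CPM (log axis) of the macrophage, resident and pan-leukocyte genes, with a point for each library and a line at the mean of each group of 2 libraries. In each set of genes the E16.5 control libraries are lowest, MOF cKO follows, and the P0.5 libraries are highest.

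Cd68 weighed most on the macrophage sum at E16.5. Cd68, a lysosomal glycoprotein, made up 68.8% and 77.2% of the summed CPM of all 37 genes in the E16.5 control libraries, against 12.8% and 24.6% in MOF cKO and 1.15% to 2.02% in the P0.5 libraries. Its counts were 555 and 1154 in E16.5 control and 457 and 1225 in MOF cKO, and the groups overlapped (log2 fold change 0.33 ± 0.45, adjusted p = 0.594, edgeR's quasi-likelihood test). Besides Cd68, 4 macrophage genes had over 20 counts in both E16.5 control libraries: Fcer1g, Itgam, Aif1 and Pld4. Without these 5 genes, a choice made after their values were seen, the summed level of the other 32 was 3.14 and 6.36 CPM in E16.5 control and 133.3 and 133.1 CPM in MOF cKO, 28.0-fold higher. Of the 37 genes, 13 and 9 had no count in the E16.5 control libraries, while 2 and 0 had none in the MOF cKO libraries.

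**Figure D2:**
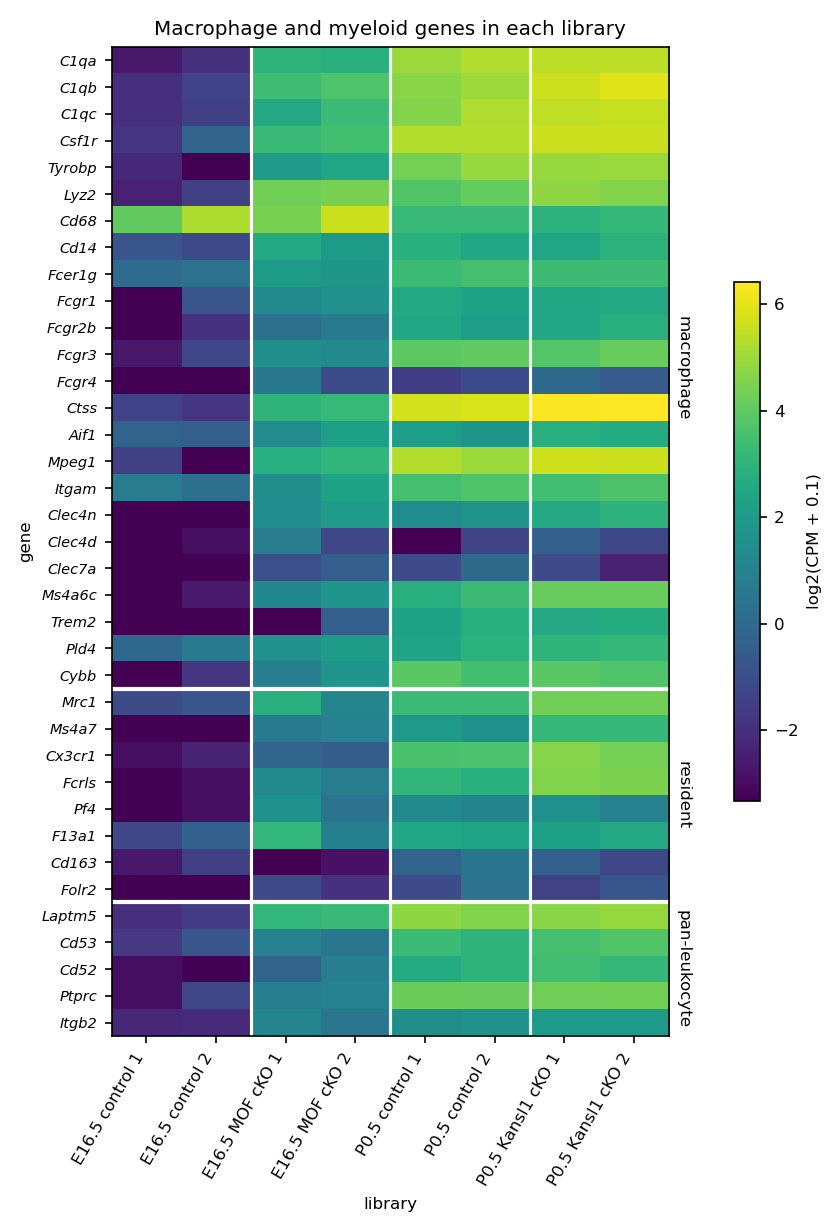
Level of each of the 37 genes as log2(CPM + 0.1) in each of the 8 libraries, with white lines between groups of libraries and between the macrophage, resident and pan-leukocyte genes. The E16.5 control columns are darkest, Cd68 being the brightest gene in them, and the P0.5 columns are bright except for genes such as Clec4d, Fcgr4, Clec7a, Cd163 and Folr2.

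MOF cKO was compared with control at E16.5 with edgeR's quasi-likelihood test, with calls resting on 2 thresholds, a Benjamini-Hochberg adjusted p under 0.01 and a fold over 1.5. Of the 37 genes, 17 were called higher, beside 10% of all genes tested. None was called lower, beside 9.59% of all genes tested; 0 were lower at an unadjusted p under 0.05, beside 25.1%, and 0 by DESeq2. The called genes were 11 of the 24 macrophage, 3 of the 8 resident and 3 of the 5 pan-leukocyte genes. In 34 of 37 genes both MOF cKO libraries lay above both control libraries, beside 38.7% of all genes tested, with Cd68 and Trem2 overlapping. Cd163 was lower in both, beside 33.8% of all genes tested. Of the 32 genes tested, 24 passed edgeR's filter on low counts only through their MOF cKO counts, so that they had to differ in order to be tested. Of the 8 with enough counts in both control libraries (Cd68, Cd14, Fcer1g, Aif1, Itgam, Mrc1, Pld4 and F13a1), 1 was called, Cd14. Fcgr4, Clec4d, Trem2, Cd163 and Folr2 had too few counts to be tested. Fold changes below are log2 with a standard error, each from this test with its adjusted p.

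The complement genes C1qa, C1qb and C1qc, which encode the 3 chains of C1q, rose together. C1qa had 2 and 5 counts in control, against 171 and 181 in MOF cKO (6.02 ± 0.54, adjusted p = 0.000539). C1qb had 5 and 9 counts in control, against 220 and 329 in MOF cKO (5.67 ± 0.43, adjusted p = 0.000349). C1qc had 5 and 8 counts in control, against 125 and 246 in MOF cKO (5.19 ± 0.52, adjusted p = 0.000693). In each gene both MOF cKO libraries lay far above both control libraries. The 3 genes lie side by side on the minus strand of chromosome 4, within chr4:136880129-136898803 of mm10, a stretch of 18.7 kb. Summed, they reached 24.1 and 30.1 CPM in MOF cKO, from 0.349 and 0.703 CPM in control.

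Csf1r, the receptor for CSF1 and IL34 on which macrophages depend, had 6 and 25 counts in control, against 205 and 275 in MOF cKO (4.33 ± 0.59, adjusted p = 0.00172). Its exons overlap those of Hmgxb3 on the opposite strand over 873 bases, and the strand setting of the counting is not given in the sources used here. Of the ligands, made by epithelial and stromal cells, Csf1 had 428 and 629 counts in control, against 698 and 948 in MOF cKO (1.04 ± 0.23, adjusted p = 0.0118) and Il34 had 189 and 209 counts in control, against 171 and 388 in MOF cKO (0.87 ± 0.33, adjusted p = 0.0750). Neither was called. In CPM both MOF cKO libraries lay above both control libraries for Csf1 and for Il34 (5.496 and 6.68 against 7.97 and 15.5 CPM).

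Of the signalling adaptors, Tyrobp, the partner of many activating receptors of myeloid cells, rose from 4 and 0 counts in control to 79 and 129 in MOF cKO (6.02 ± 0.90, adjusted p = 0.00245). Fcer1g, the gamma chain shared by Fc receptors, had 33 and 37 counts in control, against 82 and 86 in MOF cKO and was not called (1.68 ± 0.46, adjusted p = 0.0242). Both its control libraries held counts, at 0.960 and 1.18 CPM. Trem2, a lipid-sensing receptor that signals through TYROBP, had 0 and 17 counts in MOF cKO and none in control, so that a single library carried all of its counts.

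The Fc receptors, which bind the constant part of immunoglobulin G, were each higher in both MOF cKO libraries but none was called. Fcgr3 came closest, with 2 and 10 counts in control, against 59 and 59 in MOF cKO (3.67 ± 0.84, adjusted p = 0.0127). Fcgr1, the high-affinity receptor, had 0 and 15 counts in control, against 52 and 73 in MOF cKO (3.40 ± 1.16, adjusted p = 0.0529), and Fcgr2b, the inhibitory receptor, had 0 and 5 counts in control, against 24 and 38 in MOF cKO (3.93 ± 1.17, adjusted p = 0.0337). In both, 1 control library was at 0 and the other was not, and the standard errors were above 1. Fcgr4 had 0 and 0 counts in control, against 31 and 9 in MOF cKO, at least 9.85-fold higher when control is set to a floor of 3 counts per library. Fcgr2b, Fcgr4, Fcgr3 and Fcer1g share a region of chromosome 1, chr1:170958617-171234365, and the Fc receptors are similar enough in sequence that reads may be split between them.

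Among the genes of lysosomes and microbial killing, Lyz2, lysozyme, is made in bulk by macrophages and neutrophils. It had 3 and 8 counts in control, against 423 and 538 in MOF cKO (6.82 ± 0.39, adjusted p = 0.000150), or 0.0872 and 0.256 against 19.7 and 21.4 CPM, and its near copy Lyz1 may share reads with it. Ctss, the protease cathepsin S, had 10 and 6 counts in control, against 171 and 226 in MOF cKO (5.03 ± 0.42, adjusted p = 0.000441), and Mpeg1, the pore-forming perforin-2, had 9 and 0 counts in control, against 149 and 209 in MOF cKO (5.70 ± 0.83, adjusted p = 0.00219). These 3 were called, whereas Cd68, Cybb and Pld4 were not. Cybb, the membrane subunit of the phagocyte oxidase, had 0 and 6 counts in control, against 37 and 81 in MOF cKO (4.59 ± 1.12, adjusted p = 0.0163). Pld4, a lysosomal nuclease, had 30 and 49 counts in control, against 63 and 98 in MOF cKO (1.41 ± 0.51, adjusted p = 0.0623).

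Pattern receptors differed in how sharply they separated the groups. Cd14, the co-receptor for bacterial lipopolysaccharide, had 17 and 11 counts in control, against 132 and 97 in MOF cKO (3.48 ± 0.52, adjusted p = 0.00245). Clec4n, the lectin dectin-2, had no count in control, against 57 and 98 counts in MOF cKO, at least 35.8-fold higher at the floor of 3 counts per library (adjusted p = 0.00163). Clec7a, dectin-1, also had none in control, against 9 and 17 in MOF cKO, at least 5.99-fold higher, without being called (adjusted p = 0.0170). Clec4d, the neighbour of Clec4n on chromosome 6, had 0 and 1 counts in control, against 35 and 8 in MOF cKO, a pooled ratio of 60.7 (95% counting interval 10.3 to 2451). Most of its counts came from MOF cKO replicate 1, whereas Clec4n and Clec7a had more in replicate 2.

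For adhesion and the cytoskeleton, Itgam, the alpha chain of the complement receptor CR3, had 55 and 34 counts in control, against 60 and 124 in MOF cKO (1.45 ± 0.49, adjusted p = 0.0516). Aif1, an actin-binding protein known as IBA1, had 26 and 21 counts in control, against 54 and 110 in MOF cKO (2.19 ± 0.53, adjusted p = 0.0160). Neither was called, and both had measurable counts in control. The MS4A membrane proteins were at or near 0 in control: Ms4a6c had 0 and 2 counts in control, against 48 and 81 in MOF cKO, a pooled ratio of 91.00 (95% counting interval 24.7 to 759), and was called (adjusted p = 0.00348). Ms4a7, of the resident group, had no count in control, against 33 and 48 in MOF cKO, at least 18.8-fold higher (adjusted p = 0.00387).

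Of the other resident genes, Fcrls and Pf4 were called. Fcrls, an Fc receptor-like gene known from microglia and other resident macrophages, had 0 and 1 counts in control, against 52 and 40 in MOF cKO, a pooled ratio of 129.8 (95% counting interval 22.7 to 5182), adjusted p = 0.00380. Pf4, a chemokine known from platelets and also made by resident macrophages, had 0 and 1 counts in control, against 67 and 30 in MOF cKO, a pooled ratio of 137 (95% counting interval 23.99 to 5461), adjusted p = 0.00497. The platelet genes Gp9 and Ppbp had no count in any E16.5 library.

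Mrc1, the mannose receptor, had 13 and 16 counts in control, against 147 and 52 in MOF cKO and lay just outside the threshold (3.24 ± 0.70, adjusted p = 0.0104). F13a1, the coagulation factor XIII A chain, had 11 and 22 counts in control, against 187 and 44 in MOF cKO (3.28 ± 0.84, adjusted p = 0.0195), and Cx3cr1, the fractalkine receptor, had 1 and 3 counts in control, against 17 and 16 in MOF cKO (3.37 ± 1.004, adjusted p = 0.0334). MOF cKO replicate 1 exceeded replicate 2 by 3.31-fold in Mrc1, 4.97-fold in F13a1 and 2.61-fold in Pf4, so that the summed resident level was 2.54-fold higher in replicate 1, while the macrophage sum was 0.737-fold of that in replicate 2. Cd163, a haemoglobin scavenger receptor, had 2 and 8 counts in control, against 0 and 1 in MOF cKO, a pooled ratio of 0.141 (95% counting interval 0.00325 to 0.992), and was the only 1 of the 37 genes with both MOF cKO libraries below control. Folr2, a folate receptor, had none in control, against 8 and 4 in MOF cKO, at least 2.91-fold higher.

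Of the pan-leukocyte genes, 3 were called. Laptm5, a lysosomal membrane protein of blood cells, had 5 and 7 counts in control, against 184 and 238 in MOF cKO (5.52 ± 0.43, adjusted p = 0.000386), and Itgb2, the beta chain of the leukocyte integrins, had 4 and 4 counts in control, against 45 and 33 in MOF cKO (3.69 ± 0.79, adjusted p = 0.00999). Cd52, a small surface glycoprotein, had 1 and 0 counts in control, against 16 and 43 in MOF cKO, a pooled ratio of 83.2 (95% counting interval 14.4 to 3343), adjusted p = 0.00866. Ptprc, which encodes the pan-leukocyte phosphatase CD45, had 1 and 10 counts in control, against 36 and 47 in MOF cKO and was not called (3.26 ± 0.99, adjusted p = 0.0363). The tetraspanin gene Cd53 had 7 and 16 counts in control, against 41 and 33 in MOF cKO and was not called either (2.09 ± 0.76, adjusted p = 0.0657). For all 5 genes both MOF cKO libraries lay above both control libraries.

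The calls at the edge of the threshold depended on single libraries. With 1 library left out in turn, between 14 and 22 of the 37 genes were called. Itgb2, Cd52, Fcrls, Pf4 and Ms4a7 lost their call in at least 1 of the alternative analyses, and the other 12 called genes kept theirs in every alternative in which they were tested. With the replicate number as a block, 26 genes were called, and the share of all genes called with it is not reported here. The size of the change also depended on single libraries: for 9 of the 17 called genes it moved by over 1.5 times. The log2 estimate ranged over 5.12 to 9.81 for Tyrobp, 4.78 to 10.60 for Mpeg1, 5.13 to 7.97 for Cd52, 5.24 to 9.18 for Ms4a6c, 5.70 to 8.74 for Fcrls and 5.80 to 8.84 for Pf4. It ranged over 3.59 to 5.78 for Csf1r, 5.45 to 6.86 for C1qa and 6.22 to 7.74 for Lyz2. In each of the 9 both ends of the range came from leaving out E16.5 control replicate 1 or 2.

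**Figure D3:**
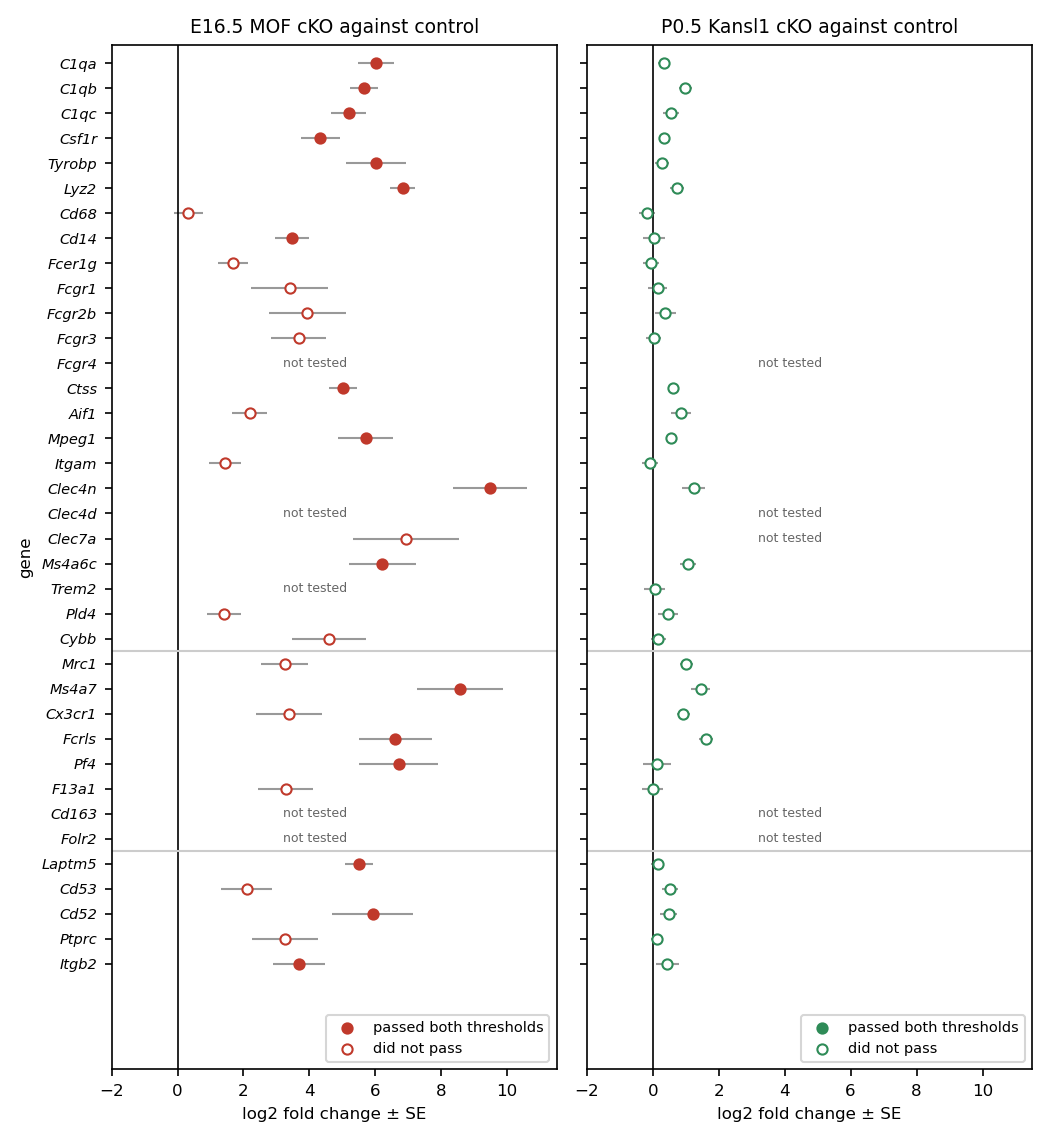
Log2 fold change ± SE of each of the 37 genes in MOF cKO at E16.5 (left) and in Kansl1 cKO at P0.5 (right), with filled points for genes that passed an adjusted p under 0.01 and a fold over 1.5, and open points for the others. In MOF cKO 17 points are filled, and values of genes at 0 in control depend on the fit's prior count; in Kansl1 cKO none is filled.

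Transcription factors and partners of these genes were read from lists outside the 37. Of 12 myeloid transcription factor genes, 11 were tested, 2 called higher and 1 lower in MOF cKO. Spi1, which encodes PU.1, the factor that directs myeloid development (listed as Sfpi1), had no count in control, against 16 and 40 in MOF cKO, at least 12.8-fold higher (adjusted p = 0.00790). Runx1 fell by 0.61 on the log2 scale, with 1919 and 1931 counts in control, against 909 and 975 in MOF cKO (adjusted p = 0.00836). Irf8, a factor of monocytes and their descendants, had 6 and 0 counts in control, against 51 and 21 in MOF cKO (4.03 ± 1.22, adjusted p = 0.0358), and Ikzf1, a lymphoid and myeloid factor, had 10 and 8 counts in control, against 22 and 17 in MOF cKO (1.55 ± 0.77, adjusted p = 0.153). Neither of them was called.

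PU.1 binds a purine-rich motif, and the sequence before the start of each gene was searched for GAGGAAGT on either strand (ACTTCCTC on the other), and no other motif was searched. RefSeq's promoter table (GRCm38.p6) held 30 of the 37 genes, and C1qa, Csf1r, Tyrobp, Cd14, Cd52, Itgb2 and Clec4n were without an entry. In the 250 bases before the start, the motif was found for 3 of 30 genes (10%), beside 2.68% of 16375 genes of the files with an entry. The 3 are shown because they carry it, each 5′ to 3′ on the strand of the gene, with the motif in capitals. C1qc is from chr4:136892915-136893164 (minus strand), with the motif 195 bases before the start, Fcgr4 from chr1:171018676-171018925 (plus strand), 24 bases before it, and Pf4 from chr5:90772185-90772434 (plus strand), 10 bases before it.
C1qc: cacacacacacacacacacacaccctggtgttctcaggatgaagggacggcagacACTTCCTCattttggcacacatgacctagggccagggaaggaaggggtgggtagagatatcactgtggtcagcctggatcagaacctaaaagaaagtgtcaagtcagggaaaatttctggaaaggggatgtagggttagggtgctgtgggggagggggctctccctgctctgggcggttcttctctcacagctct
Fcgr4: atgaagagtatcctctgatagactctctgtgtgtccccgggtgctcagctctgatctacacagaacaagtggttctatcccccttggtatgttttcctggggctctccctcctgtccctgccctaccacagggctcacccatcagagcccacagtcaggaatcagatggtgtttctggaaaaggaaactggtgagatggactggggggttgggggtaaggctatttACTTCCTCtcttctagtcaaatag
Pf4: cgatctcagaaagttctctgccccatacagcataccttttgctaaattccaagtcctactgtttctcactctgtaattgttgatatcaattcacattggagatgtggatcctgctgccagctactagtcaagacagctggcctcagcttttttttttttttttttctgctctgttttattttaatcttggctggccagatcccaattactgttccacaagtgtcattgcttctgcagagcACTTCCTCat
C1qc and Pf4 were called in MOF cKO and Fcgr4 was not tested, while C1qb, called as well, held no match in its window. A match to 8 letters is a description of the sequence and not of binding.

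Other genes of macrophage function followed in part. Of 20 leukocyte signalling and actin regulators, 18 were tested and 5 called higher and 0 lower: Fgr, a Src-family kinase, with none in control, against 15 and 44 counts in MOF cKO, Vav1, Coro1a, Nckap1l and Lcp1. Lcp1, the actin bundler L-plastin, had 17 and 10 counts in control, against 155 and 172 in MOF cKO (4.02 ± 0.43, adjusted p = 0.000782). Coro1a had 28 and 14 counts in control, against 108 and 136 in MOF cKO (2.96 ± 0.48, adjusted p = 0.00329).

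Of 19 scavenger and engulfment receptor genes, 13 were tested, 8 called higher and 1 lower. Adgre1 (listed as Emr1), which encodes the macrophage marker F4/80, had 2 and 6 counts in control, against 141 and 90 in MOF cKO (5.25 ± 0.71, adjusted p = 0.00171). Msr1, a scavenger receptor, had none in control, against 67 and 53 counts in MOF cKO (at least 28.6-fold), Marco had 0 and 1 counts in control, against 46 and 103 in MOF cKO, and Siglec1 had none in control, against 22 and 34 in MOF cKO. Marco was at or near 0 in P0.5 control (0 and 0 counts), unlike Msr1 (38 and 46). Mertk, the receptor for engulfing dead cells, went the other way: it fell by 2.02 on the log2 scale, with 438 and 554 counts in control, against 72 and 113 in MOF cKO (adjusted p = 0.00164). Its control counts were far above those of Adgre1 (2 and 6), and which cells made them was not tested.

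Among 10 genes of lipid and matrix handling in activated macrophages, all tested, 6 were called higher and 0 lower. Mmp12, macrophage elastase, had no count in control, against 241 and 96 in MOF cKO, at least 82.2-fold higher. Spp1, osteopontin, had none in control, against 52 and 53 in MOF cKO, at least 24.8-fold higher, and Gpnmb had 20 and 54 counts in control, against 446 and 635 in MOF cKO (4.26 ± 0.43, adjusted p = 0.000698). Fabp5, Lgals3 and Cd63 were called with log2 fold changes of 1.68, 1.40 and 0.66, and had at least 2394 counts in each control library. Of 9 genes of CSF1 receptor ligands, other myeloid growth factors and their receptors, 7 were tested and 0 were called by edgeR. The 9 include Csf1, Il34 and Kitl. At an unadjusted p under 0.05, 5 were higher and 0 lower. Of all 13956 genes tested, 3314 were higher and 3506 lower at that threshold.

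Markers of other cells also moved in MOF cKO, and their part in the results for the 37 genes was not tested. Of the 6 monocyte genes, 5 had no count in control. The list, almost wholly Vcan, a matrix proteoglycan that stromal cells also make, summed to 115 and 129 CPM in control and 193 and 116 in MOF cKO, with 1 of 3 tested called, Plac8 (0 and 0 against 16 and 58 counts). Its defining genes Ly6c2 (0 and 0 against 9 and 15) and Ccr2 (0 and 0 against 2 and 17) were at 0 in control. The 9 neutrophil genes listed summed to 2.21 and 2.46 CPM in control and 98.7 and 132 in MOF cKO, but Mmp9, a gelatinase that other cells make as well, supplied 97.6 and 132 CPM of this (5.70 ± 0.20, adjusted p = 4.16e-05). Of the defining neutrophil genes, Mpo had 0 and 2 and Cxcr2 18 and 16 counts in MOF cKO, and Cxcr2 was not called. Mast cell genes (9) summed to 21.7 and 18.2 CPM in control and 35.3 and 78.9 in MOF cKO: Mcpt4 was called (5 and 0 against 60 and 63 counts), Cpa3 was not (267 and 156 against 180 and 586). Ms4a2 had 5 and 0 counts in MOF cKO.

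The 9 dendritic and Langerhans genes summed to 0.233 and 0.447 CPM in control, against 0.932 and 0.917 CPM in MOF cKO. They were not tested, with Cd207 at 0 and 1, Flt3 at 2 and 0 and Itgax at 7 and 11 counts in MOF cKO. T and natural killer genes (11) summed to 11.3 and 9.01 against 5.97 and 5.78 CPM, with Cd3d and Ncr1 at 0 in every E16.5 library and Cd3e at 9 and 2 counts in MOF cKO. B cell genes (5) summed to 1.80 and 3.42 against 5.36 and 7.97 CPM, almost all of it Cd79a at E16.5. Microglia genes (5) summed to 15.01 and 14.2 against 18.5 and 15.2 CPM, with P2ry12 at 0 and 0 and 13 and 9 counts and Tmem119 not called (0.84 ± 0.64, adjusted p = 0.337). None of these lists had a called gene at E16.5 by edgeR. At an unadjusted p under 0.05, 1 of 1 tested T and natural killer gene was lower, 1 of 1 B cell gene was higher and 0 of 2 microglia genes passed. At the same threshold the fibroblast list had 5 higher and 1 lower of 7 tested, the mast cell list 5 higher and 0 lower of 6 and the neutrophil list 2 higher and 0 lower of 2. Of all 13956 genes tested, 3314 were higher and 3506 lower at that threshold.

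Erythroid genes (9 listed in the files) summed to 34.5 and 58.4 against 75.5 and 93.3 CPM, with Hba-a1 at 0 in every library and Alas2 not called (0.09 ± 0.42, adjusted p = 0.881). Platelet genes (7) summed to 3.17 and 4.83 against 8.996 and 9.84 CPM, mostly Itga2b, which was not called (1.27 ± 0.32, adjusted p = 0.0183). Endothelial genes (7) summed to 6.25 and 7.77 against 11.7 and 25.1 CPM, with Pecam1 called (1.74 ± 0.36, adjusted p = 0.00892) and Cdh5 not (1.26 ± 0.71, adjusted p = 0.196). Fibroblast genes (7) summed to 817 and 1376 against 1434 and 2027 CPM, and Col1a1 (1.02), Col3a1 (1.11) and Pdgfra (1.78) were not called. Melanocyte genes (5) summed to 12.9 and 37.6 against 15.2 and 60.5 CPM, with Dct (0.19) and Pmel (0.65) not called. Of 7 epithelial genes 2 were called higher, Krt1 (1.67) and Krt10 (1.12), and Krt14 (0.20), Krt5 (-0.04) and Trp63 (-0.57) were not called.

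**Figure D4:**
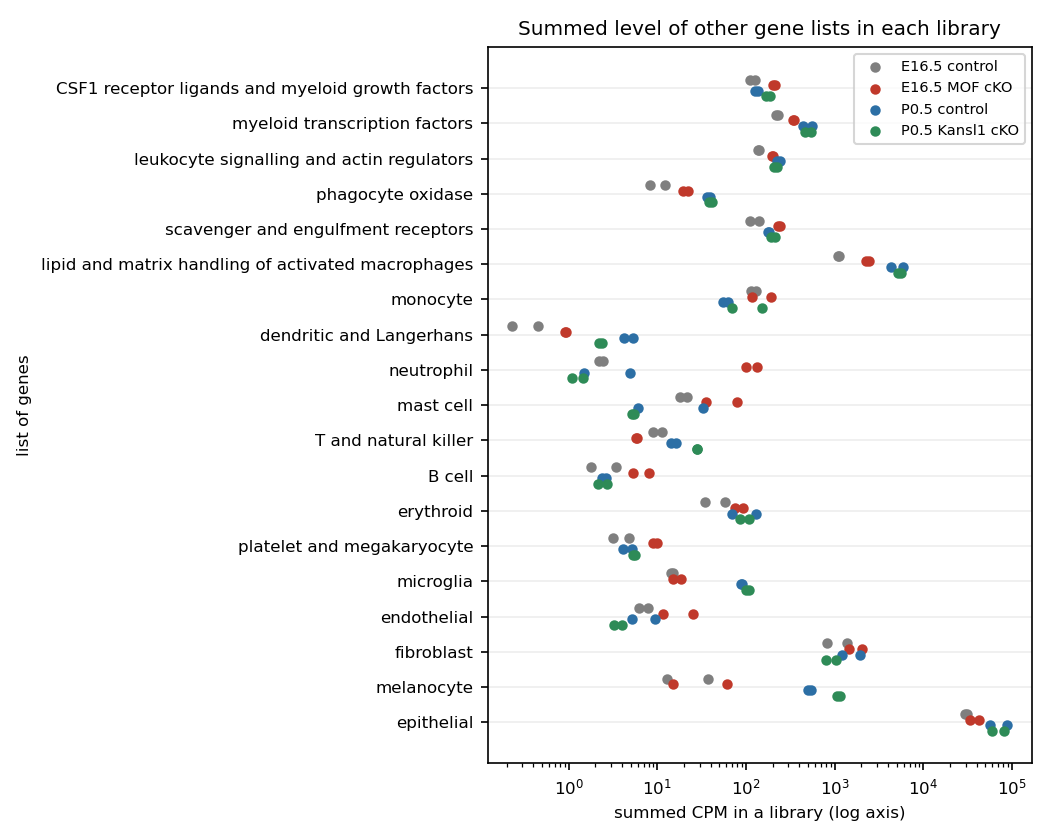
Summed CPM (log axis) of 19 other gene lists in each library, coloured by group. At E16.5 the neutrophil list, through Mmp9, separates MOF cKO from control most widely, while the epithelial list is the highest of all lists in each library.

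At P0.5 the genes were present in both groups, and the second comparison asked whether loss of KANSL1 shifted them. Their summed level was 1.40-fold higher in Kansl1 cKO than in control, 1.37-fold for the macrophage, 1.95-fold for the resident and 1.17-fold for the pan-leukocyte genes. Of the 37 genes, 32 were tested and 0 were called by edgeR's quasi-likelihood test (0 of all 13031 genes tested were called, a background of 0%). DESeq2 called 1, Fcrls, and its share over all genes is not reported here. At the same thresholds the article, which used DESeq2, reports genes both lower and higher in Kansl1 cKO. At an unadjusted p under 0.05, 11 were higher and 0 lower, beside 7.43% of all genes tested higher and 8.26% lower. Those 11 were 7 macrophage and 4 resident genes, and none was pan-leukocyte. In 22 of 37 genes both Kansl1 cKO libraries lay above both control libraries and in 3 below, beside 23.5% and 24.4% of all genes tested. All 32 tested genes had enough counts in the control libraries alone to be tested. Values in parentheses are log2 fold changes.

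The resident genes under an unadjusted p of 0.05 were Fcrls, Ms4a7, Mrc1 and Cx3cr1. Fcrls had 66 and 99 counts in control, against 443 and 264 in Kansl1 cKO, or 8.35 and 7.06 CPM in control and 23.9 and 22.2 CPM in Kansl1 cKO (1.61 ± 0.21, adjusted p = 0.176). Ms4a7 had 29 and 42 counts in control, against 164 and 106 in Kansl1 cKO, or 3.67 and 2.996 CPM in control and 8.83 and 8.91 CPM in Kansl1 cKO (1.44 ± 0.29, adjusted p = 0.180). Mrc1 had 78 and 138 counts in control, against 360 and 238 in Kansl1 cKO, or 9.87 and 9.84 CPM in control and 19.4 and 20.01 CPM in Kansl1 cKO (1.02 ± 0.20, adjusted p = 0.180). In these 3 the 2 Kansl1 cKO libraries differed little from each other in CPM and exceeded control by 2.03-fold to 3.05-fold. Cx3cr1 had 95 and 176 counts in control, against 467 and 246 in Kansl1 cKO, or 12.02 and 12.6 CPM in control and 25.2 and 20.7 CPM in Kansl1 cKO (0.92 ± 0.19, adjusted p = 0.185). The other 4 resident genes were not among the 11. F13a1 had 44 and 70 counts in control, against 85 and 69 in Kansl1 cKO (-0.0029 ± 0.31, adjusted p = 0.998). Pf4 had 19 and 28 counts in control, against 53 and 21 in Kansl1 cKO (0.12 ± 0.42, adjusted p = 0.926). Cd163 had 6 and 18 counts in control, against 13 and 4 in Kansl1 cKO, a pooled ratio of 0.510 (95% counting interval 0.257 to 0.989), and Folr2 had 3 and 17 counts in control, against 5 and 6 in Kansl1 cKO, a pooled ratio of 0.396 (95% counting interval 0.171 to 0.867), and neither was tested.

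Among the macrophage genes, the largest estimates were those of Clec4n and Ms4a6c. Clec4n had 20 and 45 counts in control, against 107 and 92 in Kansl1 cKO (1.23 ± 0.35, adjusted p = 0.221). Ms4a6c had 55 and 141 counts in control, against 331 and 212 in Kansl1 cKO (1.07 ± 0.24, adjusted p = 0.197). The C1q genes stood at different points: C1qb had 203 and 446 counts in control, against 945 and 726 in Kansl1 cKO (0.98 ± 0.20, adjusted p = 0.180). C1qc had 190 and 536 counts in control, against 825 and 553 in Kansl1 cKO (0.56 ± 0.24, adjusted p = 0.325). C1qa had 244 and 536 counts in control, against 804 and 514 in Kansl1 cKO (0.34 ± 0.18, adjusted p = 0.397). Kansl1 cKO replicate 1 was the deepest of the 4 P0.5 libraries, at 19774643 counts. Aif1 had 33 and 45 counts in control, against 126 and 74 in Kansl1 cKO (0.85 ± 0.31, adjusted p = 0.278). Lyz2 had 107 and 241 counts in control, against 507 and 277 in Kansl1 cKO (0.73 ± 0.20, adjusted p = 0.217). Ctss had 422 and 820 counts in control, against 1525 and 1010 in Kansl1 cKO (0.60 ± 0.15, adjusted p = 0.206). Mpeg1 had 310 and 432 counts in control, against 976 and 585 in Kansl1 cKO (0.56 ± 0.18, adjusted p = 0.238), the last of the 7 under an unadjusted p of 0.05.

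The remaining macrophage genes tested, like C1qc and C1qa, were not under an unadjusted p of 0.05. Csf1r had 312 and 542 counts in control, against 912 and 584 in Kansl1 cKO (0.35 ± 0.15, adjusted p = 0.330). Tyrobp had 163 and 415 counts in control, against 558 and 363 in Kansl1 cKO (0.28 ± 0.21, adjusted p = 0.560). Pld4 had 40 and 103 counts in control, against 150 and 106 in Kansl1 cKO (0.46 ± 0.29, adjusted p = 0.498). In these 3, the groups did not overlap. Among the tested Fc receptors and their gamma chain they did: Fcer1g had 77 and 161 counts in control, against 186 and 121 in Kansl1 cKO (-0.06). Fcgr1 had 45 and 68 counts in control, against 105 and 69 in Kansl1 cKO (0.15). Fcgr2b had 43 and 60 counts in control, against 101 and 82 in Kansl1 cKO (0.37). Fcgr3 had 122 and 226 counts in control, against 261 and 209 in Kansl1 cKO (0.02). The sign of Fcgr3 turned when libraries were scaled by size alone. Cd14 had 56 and 78 counts in control, against 98 and 89 in Kansl1 cKO (0.04). Trem2 had 38 and 97 counts in control, against 107 and 76 in Kansl1 cKO (0.05). Itgam had 91 and 190 counts in control, against 197 and 151 in Kansl1 cKO (-0.09). Cybb had 118 and 153 counts in control, against 282 and 157 in Kansl1 cKO (0.17), each overlapping between groups, and the signs of Cd14 and Trem2 turned with scaling by size alone as well. Cd68 had 73 and 135 counts in control, against 140 and 106 in Kansl1 cKO and was lower in both Kansl1 cKO libraries (-0.18 ± 0.25, adjusted p = 0.765).

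Of the macrophage genes, 3 were too scarce to test. Fcgr4 had 2 and 5 counts in control, against 16 and 7 in Kansl1 cKO, a pooled ratio of 2.36 (95% counting interval 0.982 to 6.53), and did not overlap between groups in CPM (0.253 and 0.357 against 0.862 and 0.589). Clec4d had 0 and 4 counts in control, against 13 and 4 in Kansl1 cKO, a pooled ratio of 3.06 (95% counting interval 0.998 to 12.5), and Clec7a had 3 and 13 counts in control, against 7 and 1 in Kansl1 cKO, a pooled ratio of 0.360 (95% counting interval 0.133 to 0.891). No pan-leukocyte gene had an unadjusted p under 0.05. Ptprc had 148 and 253 counts in control, against 363 and 241 in Kansl1 cKO (0.14 ± 0.18, adjusted p = 0.752). Laptm5 had 210 and 335 counts in control, against 470 and 350 in Kansl1 cKO (0.14). Cd52 had 49 and 112 counts in control, against 200 and 106 in Kansl1 cKO (0.48). Cd53 had 78 and 112 counts in control, against 213 and 160 in Kansl1 cKO (0.51). Itgb2 had 22 and 42 counts in control, against 71 and 47 in Kansl1 cKO (0.44). Their adjusted p-values ran from 0.369 to 0.752.

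Of the 110 genes of the other lists tested at P0.5, 0 were called by edgeR's quasi-likelihood test in Kansl1 cKO. At an unadjusted p under 0.05, 17 were higher and 12 lower, beside 7.43% of all genes tested higher and 8.26% lower. Adgre1 (Emr1) had 117 and 182 counts in control, against 436 and 284 in Kansl1 cKO (0.79 ± 0.19, adjusted p = 0.198) and Spi1 (Sfpi1) had 36 and 100 counts in control, against 96 and 61 in Kansl1 cKO (-0.18 ± 0.33, adjusted p = 0.831). Fibroblast genes had lower values, with a sum of 1943 and 1209 CPM in control and 1031 and 788 in Kansl1 cKO and log2 fold changes of -1.91 for Col1a1 and -1.76 for Col3a1, whereas melanocyte genes were higher, at 499 and 545 against 1055 and 1154 CPM, and T and natural killer genes at 16.45 and 14.3 against 28.2 and 27.7 CPM. The part of these cells in the values of the 37 genes was not tested.

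The 2 controls were then compared, which sets sorted E16.5 cells beside whole P0.5 epidermis. Stage, isolation and experiment cannot be told apart in this comparison, and it shares the E16.5 control libraries with the MOF comparison. Of the 37 genes, 31 were called higher in P0.5 control, beside 22.2% of all genes tested. None was called lower, beside 17.6%. At an unadjusted p under 0.05, 1 gene, Cd68, was lower, beside 30.3%. DESeq2 called 1 lower, and its share over all genes is not reported here. In 35 genes both P0.5 control libraries lay above both E16.5 control libraries, beside 39.4% of all genes tested, and in 1 below, beside 41.5%. Of the 33 tested, 5 had enough counts in the E16.5 control libraries alone. The other 28 passed the filter only through their P0.5 counts, so that they had to differ in order to be tested. Of the 5, Fcer1g, Itgam, Aif1 and Pld4 were called and Cd68 was not. All 5 pan-leukocyte genes, 20 of 24 macrophage and 6 of 8 resident genes were called. Cd68 alone was lower at P0.5, with 16.1 and 36.9 CPM in E16.5 control and 9.24 and 9.63 CPM in P0.5 control (-1.47 ± 0.37, adjusted p = 0.0107), and Cd163 was higher without being called (2.74 ± 0.84, adjusted p = 0.0235). Ctss ran from 0.291 and 0.192 to 53.4 and 58.5 CPM (7.84 ± 0.27, adjusted p = 6.62e-07), and Ptprc from 0.0291 and 0.320 to 18.7 and 18.05 CPM (6.74 ± 0.59, adjusted p = 6.08e-05). Trem2, at 0 in both E16.5 control libraries, was at least 64.05-fold higher.

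The levels in MOF cKO and in P0.5 control are given side by side, without a test. These groups differ in stage, isolation and experiment as well as in genotype. In 27 of 37 genes both P0.5 control libraries exceeded both MOF cKO libraries, in 4 the order was the opposite (Clec4d, Cd68, Fcgr4 and Lyz2) and 6 overlapped. The share of all genes in each order is not reported here, so these counts do not separate the 37 genes from all genes. The median gene was 2.99-fold higher in P0.5 control. Lyz2 stood at 19.7 and 21.4 CPM in MOF cKO and 13.5 and 17.2 CPM in P0.5 control. Its ratio to the summed C1q genes was 0.820 and 0.712 in MOF cKO and 0.168 and 0.159 in P0.5 control. In E16.5 control this ratio was 0.25 and 0.364, from 3 and 8 Lyz2 counts, and in Kansl1 cKO 0.197 and 0.154. Ptprc stood at 1.68 and 1.87 against 18.7 and 18.05 CPM, Cx3cr1 at 0.792 and 0.638 against 12.02 and 12.6 CPM, and Trem2 at 0 and 0.677 against 4.81 and 6.92 CPM. These 3 were 10.4, 17.2 and 17.3 times as high in P0.5 control, while F13a1, Pf4, Aif1, Clec4n, Clec7a and Cd14 overlapped between MOF cKO and P0.5 control.

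**Figure D5:**
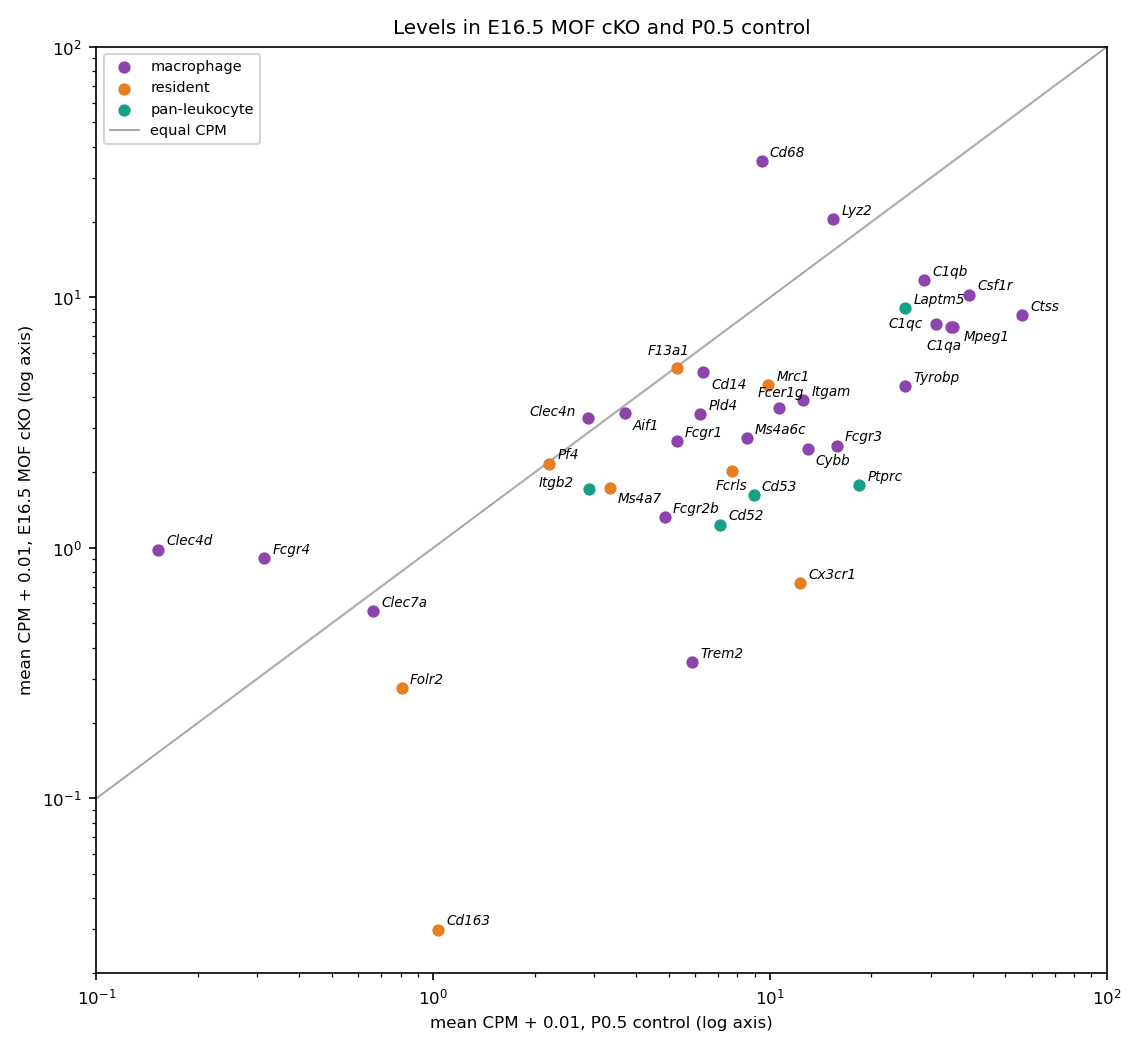
Mean CPM + 0.01 of each gene in P0.5 control (horizontal) and E16.5 MOF cKO (vertical), each over 2 libraries, on log axes with a line of equal CPM. Most genes lie below the line; Lyz2, Cd68, Fcgr4 and Clec4d lie above it, and Cx3cr1, Trem2 and Cd163 are furthest below.

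Levels between genes were compared per kilobase of exon. In MOF cKO the highest mean levels were those of Cd68 (27.9 CPM per kilobase), Lyz2 (15.6), C1qb (10.7), C1qa (7.30) and Tyrobp (6.61). In P0.5 control they were those of Ctss (41.2 CPM per kilobase), Tyrobp (37.7), C1qa (33.2), C1qb (26.4) and C1qc (16.1). In E16.5 control Cd68, at 21.1 CPM per kilobase, was followed by Fcer1g at 1.23 and Aif1 at 0.466, whereas C1qa, C1qb and C1qc lay at 0.105, 0.199 and 0.104.

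Whether the effects of the 2 deletions differed was tested as an interaction over all 8 libraries with edgeR's quasi-likelihood test. For 15 of 37 genes the MOF effect exceeded the Kansl1 effect, beside 1.76% of all genes tested called in that direction, and for 0 it was smaller, beside 1.17%. At an unadjusted p under 0.05 it was smaller for 0 genes, beside 16.4%, and DESeq2 called 0 of them smaller. The 15 were the C1q genes, Csf1r, Tyrobp, Lyz2, Cd14, Fcgr3, Ctss, Laptm5, Mpeg1, Clec4n, Ms4a6c, Ms4a7 and Fcrls. Of these, only Cd14 had enough counts in both E16.5 control libraries to pass the filter of the MOF comparison on them alone. The effects compared are folds and not differences in CPM. The mean sum of the 37 genes was 35.6 CPM in E16.5 control and 182.6 CPM in MOF cKO. It was 476.0 CPM in P0.5 control and 665.6 CPM in Kansl1 cKO. Lyz2 differed by 6.05 ± 0.44, adjusted p = 0.000280, C1qa by 5.63 ± 0.41, adjusted p = 0.000280, Laptm5 by 5.33 ± 0.36, adjusted p = 0.000247 and Ctss by 4.39 ± 0.29, adjusted p = 0.000247, on the log2 scale. Fcgr3 differed by 3.62 ± 0.61, adjusted p = 0.00863 although it was not called in MOF cKO alone. Cd52, Itgb2 and Pf4 were called in MOF cKO, but their difference from the Kansl1 effect was not (5.29 ± 0.95, adjusted p = 0.0104 for Cd52, 3.19 ± 0.71, adjusted p = 0.0209 for Itgb2 and 6.46 ± 1.20, adjusted p = 0.0117 for Pf4). With the replicate number as a block, 0 of the 37 genes were called. How many of all genes were called with this block is not reported here, so the 0 does not separate the 37 genes from all genes. The calls also depended on single libraries.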

How the data were processed

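Poly(A) RNA of 8 mouse skin libraries was analysed, 2 per group. The authors deposited raw counts of reads per gene from HTSeq on mm10, without normalization. The submitters' processing notes name TopHat2 as aligner and the article names HISAT2. The annotation and strand setting are not given in the sources used here, and the library kit is directional. Entries that name no gene held 21.1% to 26.0% of reads and were left out. The tests used edgeR 4.0.16 under R 4.3.3 (filterByExpr, TMM, quasi-likelihood test, Benjamini-Hochberg adjustment over all genes tested), each comparison in its own fit and the difference of effects in a fit over 8 libraries. Genes were called at an adjusted p under 0.01 and a fold over 1.5. CPM used TMM factors over all 8 libraries. The standard error is the log2 fold change divided by the root of the F statistic. Folds against 0 counts used a floor of 3 counts per library, and counting intervals (95%, exact) cover counting error only. The method was also run on simulated data, with changes set in genes that passed the filter, and the outcome is not reported here. Coordinates and exon lengths came from GENCODE M21 (92.9% of symbols and all 37 genes matched), promoters from RefSeq.

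The 37 genes and the 19 other lists (172 genes, 170 of them in the files) were chosen with earlier results of these data known. All 37 genes are named. Values of some genes of the other lists are not reported here. Per-library values are given for those called or with over 3 counts in every P0.5 library, and of the other lists for defining genes and the called genes with the largest changes at E16.5. Alternatives were other filters and scalings, DESeq2 1.42.0, a replicate block, a looser threshold, a single fit over all libraries and leaving out each library. Both the 2 libraries per group and the low counts of many genes in E16.5 control limit the precision.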

Additional observations from a re-analysis of the deposited data

Results flagged for a closer look

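For 15 of the 37 genes the effect of MOF deletion at E16.5 differed from that of Kansl1 deletion at P0.5 in the interaction test. The test compares the deletions together with the stage and the isolation of the cells, and it compares folds, not differences in CPM. The MOF effect minus the Kansl1 effect, on the log2 scale, was 5.63 for C1qa, 4.65 for C1qb and 4.60 for C1qc, the chains of complement C1q. It was 3.95 for Csf1r, 5.67 for Tyrobp, 3.40 for Cd14 and 3.62 for Fcgr3, which encode receptors or their adaptor. For the lysosomal genes it was 6.05 for Lyz2, 4.39 for Ctss and 5.08 for Mpeg1, and for the pan-leukocyte gene Laptm5 it was 5.33. It was 7.78 for Clec4n, 6.65 for Ms4a7, 5.06 for Ms4a6c and 4.86 for Fcrls, whose E16.5 control libraries held between 0 and 2 counts each, so that these 4 values depend on the prior count of the fit. Tyrobp and Mpeg1 also had 1 E16.5 control library at 0. With a library left out, 9 of the 15 values moved by over 1.5 times: 4.93 to 9.01 for Tyrobp, 4.31 to 9.52 for Mpeg1, 3.196 to 5.52 for Csf1r, 2.82 to 5.32 for Fcgr3, 4.09 to 7.67 for Ms4a6c, 3.98 to 6.68 for Fcrls, 5.44 to 7.09 for Lyz2, 5.05 to 6.58 for C1qa and 4.21 to 5.33 for C1qb. Both ends of each of these ranges came from leaving out an E16.5 control library.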

How the results depend on the processing

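The 17 genes called in MOF cKO became 28 with the filter lowered to 1 count, 27 with DESeq2, 26 with the replicate block, 27 at an adjusted p under 0.05 and 28 with a single fit over all libraries, with the 17 kept in each, and 14 to 22 with a library left out. The 0 called in Kansl1 cKO became 2 (C1qb and Fcrls) with the filter lowered to 1 count, 1 with DESeq2, and 0 to 2 with a library left out. For the difference between the effects, 15 became 27, 25 and 24 with the filter lowered to 1 count, DESeq2 and an adjusted p under 0.05, 0 with the replicate block, and 7 to 15 with a library left out. The 31 called between controls ranged from 27 to 34. The study describes pairs of samples with littermate controls but not which numbers share a litter. Same-numbered libraries deviated together with r = 0.331 in the MOF, -0.440 in the Kansl1 and 0.191 in the control comparison across genes. Crossing the numbers of the Kansl1 cKO libraries in the block, chosen after seeing the data, left 0 called, as did the block with the numbers as given.

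In the Kansl1 comparison F13a1 was 0.010 with the filter lowered to 1 count and 0.029 in the single fit, Fcgr3 -0.016 with at least 1 CPM in 2 libraries, and with library size alone Fcgr3 was -0.0416, Cd14 -0.020 and Trem2 -0.013. With a library left out (a lone library being assumed to vary like the other group), the ranges were -0.21 to 0.16 for F13a1, -0.18 to 0.17 for Fcgr3, -0.17 to 0.32 for Trem2, -0.26 to 0.27 for Cd14, -0.082 to 0.40 for Cybb, -0.17 to 0.041 for Fcer1g, -0.0027 to 0.26 for Fcgr1, -0.25 to 0.032 for Itgam, -0.29 to 0.38 for Pf4 and -0.0013 to 0.24 for Laptm5. Cd68 ranged from -0.38 to 1.05 in MOF cKO and from -0.090 to 1.35 in the difference of effects, where Trem2 ranged from -0.035 to 6.67 and Clec4d from -1.06 to 5.62. Scaling by library size alone put the all-gene median at -0.32 (log2) in MOF cKO. The cause of these changes was not tested.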

Other observations

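Some immune genes outside the 37 differed in where they were found. Marco, Fgr, Mmp12 and Mmp9 were present in MOF cKO and scarce in P0.5 epidermis of either genotype: Mmp9 had 2093 and 3301 counts in MOF cKO and 6 and 8 in P0.5 control, Mmp12 241 and 96 and 6 and 21, Marco 46 and 103 and 0 and 0, and Fgr 15 and 44 and 0 and 4. Cd3d, a T cell receptor subunit, had no count in any E16.5 library, 14 and 25 in P0.5 control and 73 and 48 in Kansl1 cKO (1.18 ± 0.36, adjusted p = 0.232, edgeR's quasi-likelihood test), and P2ry12, a purine receptor of microglia, had 13 and 9 counts in MOF cKO, 29 and 65 in P0.5 control and 168 and 59 in Kansl1 cKO. Cd207, the Langerhans cell lectin langerin, had no count in any P0.5 library. Siglec1, a sialic acid receptor of some resident macrophages, had 22 and 34 counts in MOF cKO, 1 and 10 in P0.5 control and 27 and 20 in Kansl1 cKO (1.71 ± 0.67, adjusted p = 0.298). None of these differences at P0.5 passed the adjusted threshold.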
